A study of Mus musculus with 4 samples.

Results

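The 10 genes Fos, Fosb, Jun, Junb, Jund, Egr1, Atf3, Ier2, Hspa1a and Hspa1b were taken by symbol from the 32285 gene rows of 4 single-cell RNA-seq libraries of mouse incisor, and all 10 had UMIs in each library. Their levels were higher in both replicate 2 libraries than in both replicate 1 libraries for 9 of the 10 genes in incisor mesenchyme. The share of all genes with this pattern is given below with the test of the replicate numbers. Within each genotype, replicate 2 was above replicate 1 there for all 10, beside 43.4% of 15007 genes. They differed strongly between cell classes, with macrophages high and epithelium low for most of the transcription factor genes. No member passed the test of Din-KO against WT in any class when the replicate number was not a term of the fit. With it as a term (a block), 5 members passed in mesenchyme, where 100 genes were called higher and 28 lower. The labels, however, do not show that the numbers pair the libraries.

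Immediate early genes are transcribed within minutes of a growth signal, a mechanical cue or damage, from factors already present in the cell, and their short-lived mRNAs soon fall again. Fos and Fosb proteins pair with Jun, Junb or Jund to form AP-1, and Egr1, Atf3 and Ier2 encode nuclear proteins induced in the same phase. Hspa1a and Hspa1b encode inducible HSP70 chaperones, which heat shock factor switches on when proteins misfold. Enzymatic dissociation of tissue at body temperature is well known to induce both groups, so single-cell data carry them as a mark of handling as well as of the tissue.

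The libraries came from the proximal tissue of lower incisors of mice at postnatal day 15, 2 from WT mice and 2 from Din-KO mice. Din (4930453N24Rik) is a predicted gene. Din-KO mice carry the germline tm1b allele, which carries a LacZ reporter and has lost an exon of Din in all cells. Tissue of both genotypes was cut into pieces of 0.5 mm, digested with 2.5 mg/ml liberase at 37 °C for 30 min and passed through a 70 µm strainer, and dead cells were removed. Each genotype has a library numbered 1 and a library numbered 2. The labels name the libraries of the 2 numbers in different forms, do not say what else set the numbers apart, and do not give the mice behind a library. The p-values below therefore measure only the spread between libraries, which may be technical.

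Over all barcodes the libraries held between 32198098 and 54348039 UMIs, and 11310 of 20502 barcodes passed the filters on genes, mitochondrial and hemoglobin UMIs. Between 4 and 12 barcodes were shared by a pair of libraries. Passing cells had a median of 9178 (WT) and 8016 UMIs (Din-KO) for replicate 1, and of 11587.5 and 11486.5 UMIs for replicate 2. Replicate 2 cells were thus the deeper ones in both genotypes. Y-linked genes summed to 0.106 and 0.0609 CPM (UMIs of the gene per 1e6 UMIs) in the mesenchyme of the WT libraries and to 110 and 99.5 CPM in Din-KO mesenchyme. Xist, the RNA that silences an X chromosome in female cells, stood at 1325 (WT) and 578 CPM (Din-KO) for replicate 1, and at 1272 and 748 CPM for replicate 2. Over all cells, sex-linked transcripts thus moved with genotype, and the genotypes were also compared in cells with Xist and no Y-linked UMI. Din itself stood at 36.3 (WT) and 22.6 CPM (Din-KO) for replicate 1, and at 28.6 and 28.3 CPM for replicate 2. These 3′ UMIs can come from outside the deleted part and check nothing.

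In GRCm38 coordinates, Fos (ENSMUSG00000021250) lies at chr12:85473890-85477273 on the plus strand and Fosb (ENSMUSG00000003545) at chr7:19302696-19310051 on the minus strand. Jun (ENSMUSG00000052684) is a single-exon gene at chr4:95049034-95052222 on the minus strand. Junb (ENSMUSG00000052837) at chr8:84974484-84978718, Jund (ENSMUSG00000071076) at chr8:70698949-70700616 and Ier2 (ENSMUSG00000053560) at chr8:84661331-84662852 share a chromosome. Atf3 (ENSMUSG00000026628) spans chr1:191170296-191218039, and Egr1 (ENSMUSG00000038418) is on chromosome 18. Genes on the opposite strand overlap Jun (Junos), Junb (Prdx2), Jund (Gm11175) and Hspa1a (Gm20481). The sources used here do not give the strand setting of the counting, so reads of these pairs may not have been told apart.

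Hspa1a (ENSMUSG00000091971, chr17:34969190-34972156) and Hspa1b (ENSMUSG00000090877, chr17:34956436-34959238) are neighbours on the minus strand, 9951 bases apart. Their coding sequences were identical at 1915 of 1923 aligned bases (99.58%) and their 3′ UTRs at 70.38% of 547 aligned bases. Of the last 200 bases of each transcript, 24 aligned and 20 of these were identical. Counting of reads from the coding part could have split or dropped them, so the level of each copy is uncertain, and the pair is described gene by gene with that limit.

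The promoters of 8 of the 10 members, all but Egr1 and Ier2, matched the RefSeq table for GRCm38.p6. Each window ran from 250 bases before the start to 50 bases after it. The windows are shown for Fos and Jun, an AP-1 partner of each family, and for both heat shock copies, since these stand for the 2 arms of the response. Capitals mark TGACG, a part of the CRE site TGACGTCA, and GAANNTTC, a pair of heat shock repeats, on either strand. The windows are chr12:85473640-85473939 (plus strand), chr4:95052173-95052472, chr17:34972107-34972406 and chr17:34959189-34959488 (minus strand).
Fos: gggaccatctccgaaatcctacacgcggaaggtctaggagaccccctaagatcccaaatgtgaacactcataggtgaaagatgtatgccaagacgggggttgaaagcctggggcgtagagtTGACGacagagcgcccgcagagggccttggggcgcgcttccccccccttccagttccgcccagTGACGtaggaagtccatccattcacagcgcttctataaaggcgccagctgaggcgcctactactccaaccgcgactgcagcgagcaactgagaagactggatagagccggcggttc
Jun: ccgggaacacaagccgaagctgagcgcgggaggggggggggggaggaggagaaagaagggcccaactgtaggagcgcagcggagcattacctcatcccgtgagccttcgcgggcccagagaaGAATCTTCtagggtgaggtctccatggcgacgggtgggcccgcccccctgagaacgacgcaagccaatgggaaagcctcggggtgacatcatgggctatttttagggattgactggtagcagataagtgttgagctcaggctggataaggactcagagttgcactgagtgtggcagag
Hspa1a: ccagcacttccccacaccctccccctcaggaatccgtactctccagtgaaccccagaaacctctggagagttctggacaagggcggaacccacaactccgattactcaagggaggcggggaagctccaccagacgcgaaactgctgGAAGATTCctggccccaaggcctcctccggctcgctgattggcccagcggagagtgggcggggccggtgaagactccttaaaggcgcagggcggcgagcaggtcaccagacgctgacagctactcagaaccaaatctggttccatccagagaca
Hspa1b: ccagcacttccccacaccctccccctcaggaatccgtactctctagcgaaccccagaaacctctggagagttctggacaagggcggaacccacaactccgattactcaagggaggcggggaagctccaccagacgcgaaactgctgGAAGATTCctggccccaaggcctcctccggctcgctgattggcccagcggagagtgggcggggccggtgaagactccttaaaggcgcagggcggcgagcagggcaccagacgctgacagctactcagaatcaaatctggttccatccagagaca
TGACG was found in 4 of the 8 windows (Fos, Fosb, Junb and Atf3) and in 20.8% of all 32851 promoter windows. GAANNTTC was found in 3 (Jun, Hspa1a and Hspa1b) and in 7.86% of all windows. The full CRE TGACGTCA, the AP-1 site TGAGTCA and the CArG box were in none of the 8, and in 1.79%, 5.2% and 1.63% of all windows. Sites farther than 250 bases before the start were not searched, so a gene without a match may still have such a site. The Jund window, chr8:70697489-70697788, ends before the Jund gene start given above. TATAA was in 2 members (Fos and Junb) and in 24.9% of all windows. The 2 heat shock windows were identical at 296 of 300 bases, and differed by C44T, T47C, T249G and C276T, with the base of Hspa1a first and positions counted from 1 at the 5′ end of the window. A match is a run of letters and does not show that a factor was bound.

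Cells were clustered with the listed genes kept out of the genes used for clustering, and 32 of 33 clusters could be named from marker genes. The mesenchyme-like class (Col1a1, Col3a1, Prrx1 and other markers) held 7165 cells, of which 4620 were dental pulp-like, 347 odontoblast-like and 1293 dental follicle-like. The other classes with at least 20 cells in every library were macrophage-like (1438 cells), endothelium-like (744), B-like (590) and epithelium-like (580). Every marker of these 5 classes had UMIs in its class in all 4 libraries. UMIs of each gene were summed per class and library, and levels are given as CPM of that sum. Fewer transcripts per cell and fewer cells that express a gene cannot be told apart in such sums.

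In mesenchyme-like cells, the AP-1 genes of the Fos family were higher in each replicate 2 library than in either replicate 1 library. Fos measured 104 CPM in WT and 209 CPM in Din-KO for replicate 1, and 365 and 724 CPM for replicate 2. Fosb, the second Fos family member, measured 41.0, 89.9, 211 and 338 CPM in the same order. The 4 libraries thus kept 1 order for both genes, with WT below Din-KO within a number and number 1 below number 2.

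The Jun family partners moved over narrower ranges. Jun stood at 114 CPM in WT and 176 CPM in Din-KO for replicate 1, and 346 and 451 CPM for replicate 2. Jund, which is expressed more steadily than Jun in most tissues, stood at 194, 230, 384 and 475 CPM. For Jun and Jund the replicate numbers did not overlap. Junb measured 97.1 CPM in WT and 177 CPM in Din-KO for replicate 1, and 163 and 319 CPM for replicate 2. Junb was the 1 of 10 members in which the genotypes did not overlap in mesenchyme, near the share of all genes given below with the genotype test. Its replicate numbers did overlap.

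Egr1, a zinc finger factor downstream of growth factor signals, followed the order of Fos, with 60.3 CPM in WT and 135 CPM in Din-KO for replicate 1, and 257 and 434 CPM for replicate 2. Ier2, a small nuclear regulator, stood at 62.4, 89.2, 107 and 187 CPM. Atf3, a repressor and activator induced by many stresses, was sparse, with 10, 14, 29 and 73 UMIs in the 4 libraries, or 0.355, 0.494, 1.77 and 5.87 CPM. Its fold changes rest on these few UMIs.

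Over the 4 libraries the heat shock pair had the narrowest ranges among the members. Hspa1a measured 13.8 CPM in WT and 12.5 CPM in Din-KO for replicate 1, and 17.5 and 23.7 CPM for replicate 2. Hspa1b measured 7.20, 8.82, 15.9 and 16.4 CPM in that order. Both replicate 2 libraries again lay above both replicate 1 libraries.

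**Figure D1:**
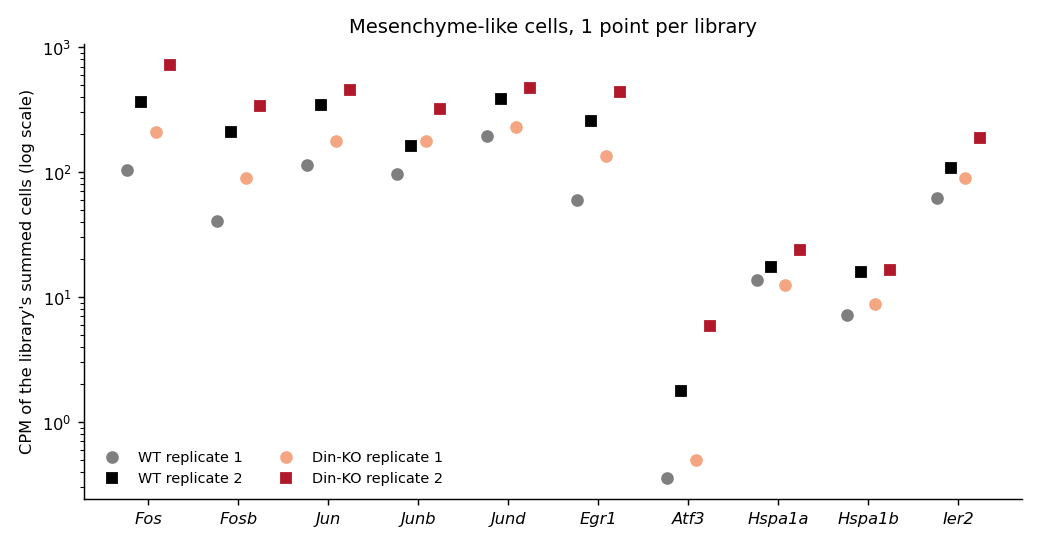
Levels of the 10 members in mesenchyme-like cells, in CPM on a log axis, 1 point per library with genotype and replicate number marked. In 9 of the 10 genes both replicate 2 points lie above both replicate 1 points, and Junb is the exception. The share of all genes with this pattern is given in the text.

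The comparison of replicate 2 with replicate 1 asked how far the number of a library goes with these genes whatever its genotype. In edgeR's quasi-likelihood test, 9 of the 10 members rose in replicate 2 in mesenchyme-like cells, where 14.0% of 15284 genes were called higher and 13.1% lower. Fos rose by a log2 fold change of 1.77 ± 0.41 (SE, edgeR adjusted p = 0.026), Fosb by 2.05 ± 0.38 and Egr1 by 1.80 ± 0.40. Jun rose by 1.43 ± 0.22 (edgeR adjusted p = 0.0085) and Jund by 0.99 ± 0.13 (edgeR adjusted p = 0.0064), the smallest p-value among the members. Atf3 rose by 3.1 ± 0.64, Ier2 by 0.93 ± 0.27 (edgeR adjusted p = 0.050, under the threshold of 0.05 before rounding), Hspa1b by 0.99 ± 0.16 and Hspa1a by 0.62 ± 0.18.

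Junb did not pass, at 0.79 ± 0.37 (edgeR adjusted p = 0.15). The median over the 10 members was 1.21 on the log2 scale, beside 0.01 over all genes tested. The replicate numbers did not overlap for 9 of the 10 members, beside 37.0% of all genes with replicate 2 above replicate 1. DESeq2 also called 9 members. Without WT replicate 1, edgeR called 3 members (Fosb, Jun and Jund), and 4 with every cell thinned to 2000 UMIs. Without that library Fos was at 1.38 ± 0.43 and Egr1 at 1.36 ± 0.33, and after thinning Fos was at 1.30 ± 0.40, Hspa1b at 0.57 ± 0.29 and Hspa1a at 0.0992 ± 0.23. Atf3 was not tested after thinning.

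The make-up of the mesenchyme moved with the number too. Dental pulp-like cells were 76.6% and 71.0% of mesenchyme-like cells in the replicate 1 libraries (WT, Din-KO) and 30.1% and 28.6% in the replicate 2 libraries, and dental follicle-like cells 11.6% and 10.2% against 47.7% and 43.0%. Mitochondrial UMIs were 3.41% and 4.42% against 4.44% and 5.01%. The 10 epithelial markers summed to 234 and 269 CPM against 664 and 642 CPM, with none at 0, and the 8 macrophage markers to 74.1 and 105 CPM against 45.6 and 53.2 CPM. Markers of B cells (45.7 and 47.0 CPM against 97.7 and 144 CPM), neutrophils (31.0 and 12.0 against 49.9 and 221) and glia (25.4 and 21.6 against 48.3 and 94.6) were also higher in replicate 2. Their part in the replicate difference was not tested, but the members were also measured within narrower sets of cells.

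Within dental pulp-like cells alone, edgeR called 5 of 10 members higher in replicate 2 (Fos, Fosb, Jun, Jund and Egr1), beside 4.13% of all genes. Fosb led by size among these 5, with a log2 fold change of 2.19 ± 0.37 (edgeR adjusted p = 0.017). Pulp Fos measured 129 CPM in WT and 275 CPM in Din-KO for replicate 1, and 498 and 938 CPM for replicate 2. The other 5 members also had positive values, from 0.75 for Hspa1a to 2.73 for Atf3. Replicate 2 lay above replicate 1 without overlap for 9 of 10 members (38.2% of genes), Junb being the exception.

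Within dental follicle-like cells, edgeR called 0 of 10 members, beside 1.69% of all genes called higher. An unadjusted p under 0.05 was found for 7 of 10 members and for 3372 of 12792 genes. Replicate 2 lay above replicate 1 without overlap for 8 of 10 (34.1% of all genes). Fosb came nearest to the threshold, with a log2 fold change of 1.73 ± 0.38 (edgeR adjusted p = 0.058).

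Odontoblast-like cells, the dentin-forming cells, showed wide ranges on few cells (63 to 108 per library). Fos was 25.1 and 27.5 CPM in the replicate 1 libraries and 484 and 941 CPM in the replicate 2 libraries (WT, Din-KO). The 8 odontoblast markers also moved with the number, summing to 13145 and 20234 CPM in replicate 1 and to 68429 and 49663 CPM in replicate 2, and the part of this in the Fos difference was not tested. No test was run on this class.

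The same order was present cluster by cluster. Of 19 clusters with at least 20 cells in every library, replicate 2 was above replicate 1 in both genotypes in 18 for Fos, 19 for Fosb, 18 for Jun, Egr1 and Ier2, 16 for Junb and 15 for Jund. The counts were lower for the sparse genes, at 13 for Atf3 and Hspa1b and 12 for Hspa1a. By class, between 18.5% (epithelium-like) and 47.1% (dental pulp-like) of all genes were higher in replicate 2 in both genotypes. All clusters come from the same 4 libraries, so the counts over clusters are not independent. The highest mesenchymal cluster for Fos in all 4 libraries was a pulp-like cluster of 798 cells. Its Fos level was 303 CPM in WT and 1077 CPM in Din-KO for replicate 1, and 924 and 1558 CPM for replicate 2.

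Din-KO was compared with WT in mesenchyme-like cells, the comparison the study was built for. In edgeR's test with no term for the replicate number, 0 of 10 members passed, beside 0.00% of 15284 genes. An unadjusted p under 0.05 was found for 0 members and 150 genes. The smallest edgeR adjusted p of any gene was 0.286, as this fit left the step between replicate numbers in the spread within a genotype. DESeq2 called 15 genes and no member. The log2 fold changes of the members were all positive, from 0.09 ± 0.52 for Hspa1b to 1.54 ± 1.39 for Atf3, with edgeR adjusted p = 1.00 for each. Fos was at 0.95 ± 0.84, Egr1 at 0.80 ± 0.88, Fosb at 0.72 ± 0.98, Ier2 at 0.66 ± 0.47 and Jun at 0.41 ± 0.70. Junb was at 0.89 ± 0.41 with the lowest unadjusted p of the members (0.087), and Junb alone had genotypes that did not overlap (11.3% of all genes, Din-KO above WT). With the number as a block, edgeR called 5 members, 100 genes higher and 28 lower, as given below with the dependence on processing.

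The median of the members without the block was 0.69, beside -0.02 over all genes. Without Din-KO replicate 2, which sets Din-KO replicate 1 alone against WT libraries of both numbers, 8 of the 10 values were negative, with Fos at -0.18. In cells with at least 3 Xist UMIs and no UMI of 4 Y-linked genes (4786 of the 7165 mesenchyme-like cells), edgeR also called 0 members, with Fos at 0.74 ± 0.79 and Junb at 0.63 ± 0.38 (edgeR adjusted p = 1.00 for both).

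Within a replicate number the Din-KO library was above the WT library at both numbers for 9 of 10 members in mesenchyme, beside 31.5% of 15007 genes. Fos was 2.02 times higher in Din-KO at number 1 and 1.99 times higher at number 2. Junb was 1.82 and 1.96 times higher and Egr1 2.24 and 1.69 times higher. Hspa1a differed, at 0.903 and 1.35 times. The number gave larger ratios than the genotype for most of these genes, as replicate 2 over replicate 1 was 3.52 in WT and 3.46 in Din-KO for Fos and 4.26 and 3.21 for Egr1. For Junb the 2 kinds of ratio were of like size, 1.68 and 1.80 for the number.

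**Figure D2:**
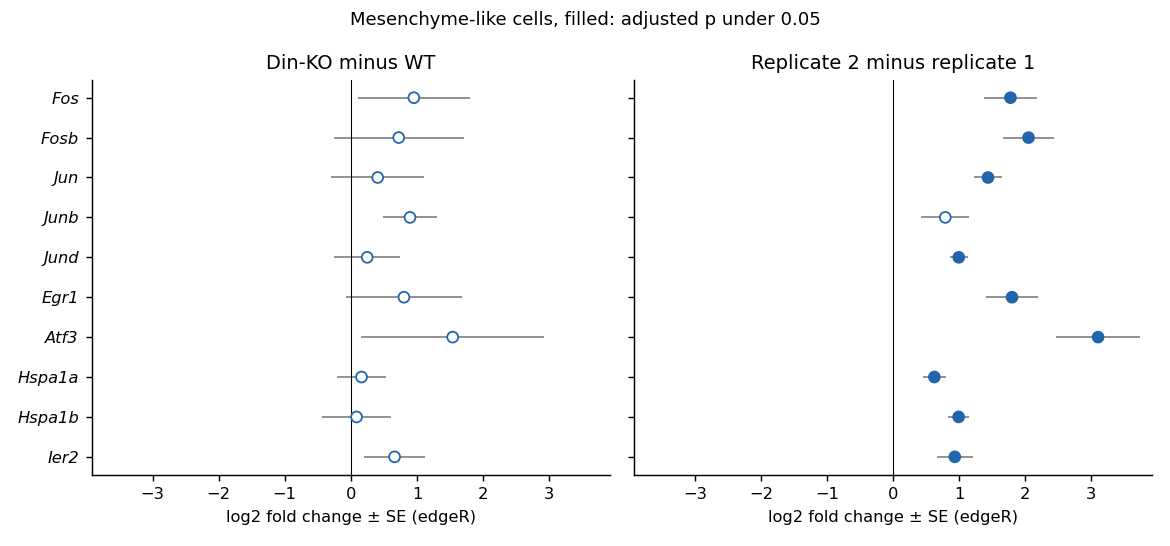
Log2 fold changes of the 10 members in mesenchyme-like cells with their standard errors, for replicate 2 minus replicate 1 and for Din-KO minus WT, from edgeR with 2 libraries a group. The error bars of the genotype differences are the longer ones for each gene.

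Macrophage-like cells held the highest mean levels of Fos, Fosb, Jun, Junb, Egr1 and Atf3 among the 5 classes with all libraries. Fos averaged 1296 ± 828 CPM (SD, n = 4 libraries) there, 564 CPM in endothelium, 350 in mesenchyme, 139 in B-like cells and 91.1 in epithelium. Neighbours in this order did not differ by more than the SD over libraries for Fos, although macrophages were above endothelium and endothelium above mesenchyme in all 4 libraries. The spread of each class over libraries is mostly the step between replicate numbers, so the classes were compared within libraries.

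In a fit of 31 sums of class and library with library as a term, edgeR called 8 of 10 members higher in macrophages than in mesenchyme, beside 24.9% of 13363 genes. Atf3 showed the greatest difference, a log2 fold change of 6.15 ± 0.45 (edgeR adjusted p = 1.17e-11), and stood at 23.9 CPM in WT and 21.1 CPM in Din-KO for replicate 1, and 354 and 241 CPM for replicate 2. Junb was higher by 2.42 ± 0.41, Egr1 by 2.17 ± 0.37 and Fos by 2.15 ± 0.49. Jun (1.57), Ier2 (1.27), Fosb (0.94) and Jund (0.90) followed. Hspa1b was lower in macrophages by 0.67 ± 0.28 on the log2 scale (edgeR adjusted p = 0.041), beside 34.0% of genes called lower, and Hspa1a was at -0.41 ± 0.25 (edgeR adjusted p = 0.17).

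Related blood cells shared part of this pattern. Monocyte or dendritic-like cells, fitted from the 2 replicate 1 libraries, had 6 members higher than mesenchyme (15.6% of genes), led by Atf3 at 8.28 ± 0.60, Junb at 3.41 ± 0.49 and Fos at 2.55 ± 0.59. Neutrophil-like cells had 4 higher (18.9% of genes), with Junb at 2.82 ± 0.46 and Ier2 at 2.28 ± 0.28, and Jun lower at -1.59 ± 0.41 (edgeR adjusted p = 0.0027; 27.5% of genes called lower). T or NK-like cells had 4 higher (12.4% of genes), with Junb at 3.20 ± 0.48, as measured in the 2 Din-KO libraries, and both heat shock copies lower (2 of 10, beside 16.9% of genes), at 0 UMIs in the 90 cells of those libraries.

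B-like cells showed a split between AP-1 partners. Jund was higher than in mesenchyme by 2.06 ± 0.21 (edgeR adjusted p = 8.66e-09) and Junb by 1.52 ± 0.41, 2 of 10 members beside 25.3% of genes. Jund measured 579 CPM in WT and 706 CPM in Din-KO for replicate 1, and 2064 and 2593 CPM for replicate 2, above every other of the 5 classes in each library. Fos (-1.56 ± 0.53), Fosb (-1.31 ± 0.44), Egr1 (-1.31 ± 0.41) and Hspa1b (-1.84 ± 0.44) were lower, and so was Hspa1a. Together 5 of 10 members were called lower, beside 34.0% of genes.

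Hspa1a had 0 UMIs in the 590 B-like cells of the 4 libraries, out of 2912517 UMIs. A count of 0 allows up to 1.03 CPM, which is at least 15.1-fold lower than the 15.5 CPM of mesenchyme-like cells. In the T or NK-like cells of 2 libraries (90 cells) both copies were at 0, which allows Hspa1a to be at least 2.97-fold lower and Hspa1b at least 2.08-fold lower than in mesenchyme.

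Endothelium-like cells, which line the vessels, had Atf3 (3.78 ± 0.47), Ier2 (1.34 ± 0.25) and Junb (1.24 ± 0.40) above mesenchyme, 3 of 10 beside 23.8% of genes. Both heat shock copies were lower there, Hspa1a by 2.45 ± 0.31 and Hspa1b by 1.98 ± 0.33 on the log2 scale, 2 of 10 beside 25.4% of genes. In perivascular-like cells Hspa1a levels lay above those of mesenchyme, but on few UMIs. Hspa1a stood there at 18.6 and 54.8 CPM for replicate 1 (WT, Din-KO; 25 and 24 cells, 3 and 12 UMIs). For replicate 2 it stood at 104 and 27.7 CPM (19 and 10 cells, 24 and 5 UMIs). Only the replicate 1 libraries held enough cells to enter the fit, in which Hspa1a was not called (1.42 ± 0.48, edgeR adjusted p = 0.063). Egr1 (1.54) and Ier2 (1.42) were called higher in the same fit, 2 of 10 beside 5.17% of genes.

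Epithelium-like cells were low for most members. Egr1 (-2.29 ± 0.39), Fos (-2.24 ± 0.51), Fosb (-2.18 ± 0.42), Jun (-2.0 ± 0.32), Junb (-1.57 ± 0.41), Hspa1a (-1.34 ± 0.27) and Ier2 (-1.28 ± 0.26) were below mesenchyme, 7 of 10 beside 22.6% of genes. Atf3 was higher by 1.83 ± 0.52, 1 of 10 beside 16.8% of genes. It had few UMIs in this class, 6 (WT) and 4 (Din-KO) for replicate 1, and 8 and 79 for replicate 2. The epithelium differed in make-up between libraries, since 1 cluster led by enamel matrix genes held 23 of 145 cells (WT) and 54 of 178 (Din-KO) for replicate 1, and 89 of 122 and 80 of 135 for replicate 2. In glia-like cells Atf3 alone was called, higher by 4.51 ± 0.65, 1 of 10 beside 10.9% of genes. That fit held the glia-like cells of the 2 Din-KO libraries, in which Atf3 stood at 11.1 (replicate 1) and 101 CPM (replicate 2). Mesenchyme of the same libraries stood at 0.494 and 5.87 CPM. The glial levels rest on 2 UMIs (replicate 1) and 67 UMIs (replicate 2). Over the 9 classes, 31 of 90 pairs of class and member were higher than mesenchyme and 18 lower. Without Din-KO replicate 1 edgeR called 17 higher, and the cause of this change was not tested.

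The step between replicate numbers was present outside the mesenchyme as well. In macrophage-like cells edgeR called 5 of 10 members higher in replicate 2 (Fos, Fosb, Junb, Atf3 and Ier2), beside 0.747% of 11247 genes. Atf3 rose by 3.60 ± 0.23 (edgeR adjusted p = 0.0049), Fosb by 2.58 ± 0.27 and Fos by 1.60 ± 0.16. Macrophage Fos stood at 607 and 599 CPM in the replicate 1 libraries (WT, Din-KO) and at 2250 and 1727 CPM in the replicate 2 libraries.

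In B-like cells 6 of 7 tested members rose in replicate 2, beside 4.84% of 7225 genes, and all 7 had replicate numbers that did not overlap (35.2% of genes). Fosb rose by 4.17 ± 0.46 (edgeR adjusted p = 0.00029), from 3.94 and 21.1 CPM in the replicate 1 libraries to 153 and 210 CPM in the replicate 2 libraries (WT, Din-KO). Jun rose by 2.57 ± 0.30, Egr1 by 2.52 ± 0.30 and Jund by 1.75 ± 0.20. Fos was at 1.97 ± 0.74 and did not pass (edgeR adjusted p = 0.099), with WT replicate 1 at 5 UMIs.

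In endothelium-like cells 6 of 9 tested members rose in replicate 2 (Fos, Fosb, Jun, Junb, Egr1 and Ier2), beside 0.854% of 11130 genes, with Fos at 2.03 ± 0.26 and Fosb at 2.34 ± 0.30. In epithelium-like cells 3 of 9 rose (Fos, Fosb and Jun), beside 0.678% of 11501 genes, with Fos at 4.24 ± 0.66 (edgeR adjusted p = 0.048). Epithelial Fos stood at 8.15 and 12.6 CPM in the replicate 1 libraries and at 60.2 and 284 CPM in the replicate 2 libraries (WT, Din-KO). The make-up of the epithelium also moved with the number, as given above with the classes. Its part in these differences was not tested.

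Counted within genotypes, replicate 2 was above replicate 1 in WT and in Din-KO for 10 of 10 members in macrophages (44.9% of genes), 10 of 10 in endothelium (41.2%), 7 of 7 in B-like cells (39.0%) and 8 of 10 in epithelium (18.5%). In epithelium Junb and Ier2 were the exceptions, both lower in replicate 2 of WT.

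The genotype comparison called no member in these classes. In edgeR 0 members passed and 0 had an unadjusted p under 0.05 in macrophage-like (0.0356% of genes called higher), endothelium-like (0.0539%), epithelium-like (0.00%) and B-like cells (0.00%), and DESeq2 called no member in them. The median log2 fold change of the tested members was 0.98 in epithelium, 0.64 in B-like cells, -0.01 in endothelium and -0.41 in macrophages. In pulp-like and follicle-like cells edgeR, with no term for the number, called 0 members and 0.00% of genes, and the medians were 0.71 and 0.66. In each, 1 member had an unadjusted p under 0.05, beside 173 of 13546 genes in pulp and 267 of 12792 in follicle.

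The medians thus differed in sign between classes, though the test of such a difference, given below, called no member. In macrophages 7 of 10 members were lower in Din-KO at both numbers, beside 33.7% of 10329 genes, and 0 of 10 were higher at both, beside 20.6%. Macrophage Jun was 0.765 times the WT level at number 1 and 0.593 times at number 2, and Atf3 0.885 and 0.681 times. Fos was 0.987 and 0.768 times. In mesenchyme the same ratios for Fos and Jun were above 1 at both numbers.

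The difference between classes was tested as an interaction of genotype and class over 5 classes. In edgeR 0 of 40 pairs of class and member passed (0.00% of 13430 genes higher in macrophages and 0.00745% lower), and 2 had an unadjusted p under 0.05. Both were Atf3, at -1.63 ± 0.73 in macrophages and -3.30 ± 1.49 in B-like cells relative to mesenchyme. Every pair had an edgeR adjusted p = 1.

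**Figure D3:**
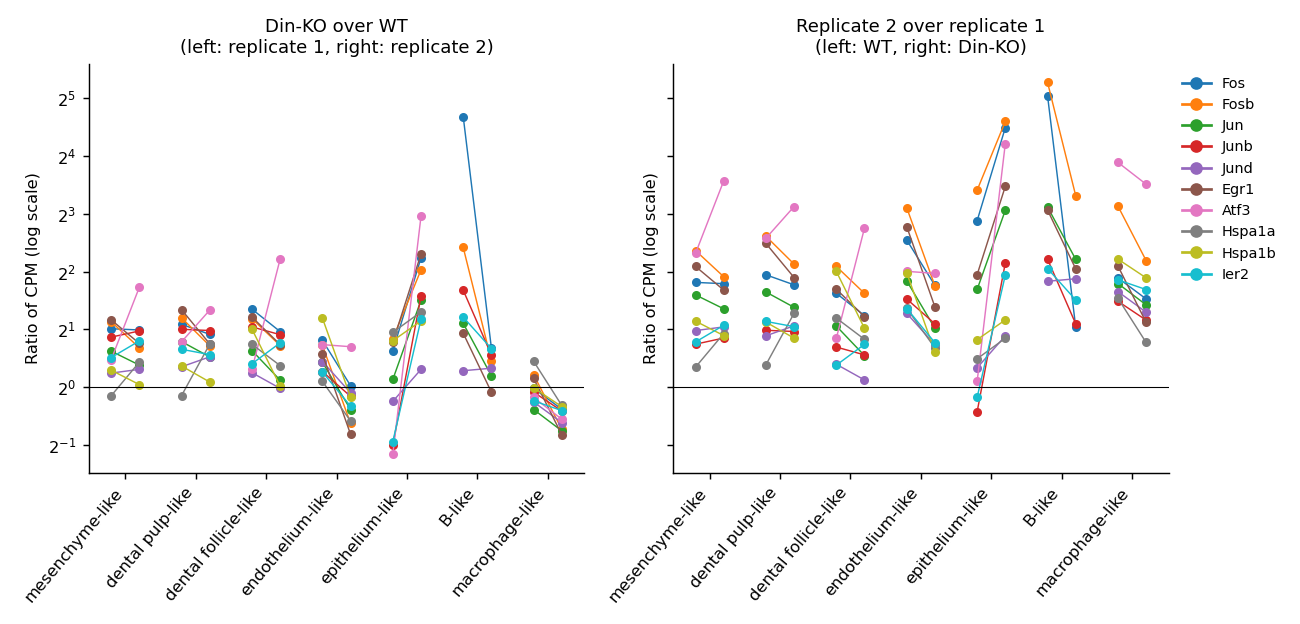
Ratios of Din-KO over WT within each replicate number and of replicate 2 over replicate 1 within each genotype, on a log axis, by class, with 1 point per member. In macrophages 7 of 10 members lie below 1 for both Din-KO ratios, while the replicate ratios of all 10 lie above 1.

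The response was also read per cell, as the number of the 10 members with a UMI after each cell was thinned to 2000 UMIs, which left out 76 shallower cells. In mesenchyme, cells with at least 5 members were 2.23% (WT) and 9.37% (Din-KO) for replicate 1, and 12.1% and 22.7% for replicate 2. Unthinned the shares were 23.1%, 30.2%, 57.9% and 60.4%. Macrophages stood at 22.7%, 15.9%, 58.2% and 57.1% after thinning, and epithelium at 0%, 0.562%, 0.820% and 6.67%. B-like cells went from 0% and 2.22% in replicate 1 to 14.7% and 24.3% in replicate 2 (WT, Din-KO). The 0% in WT replicate 1 was 0 of 177 B-like cells, which allows up to 1.69%, and 0 of 143 epithelial cells, which allows up to 2.10%. Most mesenchymal cells of each library held fewer than 5 members at this depth. No class is known to lack these genes, so a background share from free RNA could not be set.

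Across the 31 sums of class and library, Fos and Egr1 levels were the most alike pair (Pearson r = 0.923), and Jund and Hspa1a the least (r = -0.294). These sums share libraries, and the correlations describe them without a test. Of genes outside the members, those most alike to the mean member profile by Pearson r were Nfkbiz (0.886), Dusp1 (0.861), Socs3 (0.826), Nr4a1 (0.820), Trim8 (0.809), Ppp1r15a (0.809), Ddx3x (0.803), Per1 (0.796), Zfp36 (0.794) and Mvp (0.789). Of these 10, 7 were on the list of other immediate early genes, which was chosen with earlier results of these data known. That list held 32 genes, and 13363 genes were ranked.

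The wider list of immediate early genes had 31 of 32 genes tested in mesenchyme, and 15 were called higher in replicate 2 and 1 lower by edgeR. Ccn1, a matrix-bound ligand of integrins and a target of SRF and YAP, rose by 2.85 ± 0.14, Arc by 1.98 ± 0.48 and Egr3 by 1.86 ± 0.44. The 1 called lower was Cebpb at -1.12 ± 0.12, named after its value was seen. The list median was 0.71.

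Of 20 genes tested on the wider heat shock list, 3 rose in replicate 2 and 1 fell, with a median of 0.11, shares near or below the 14.0% of all genes called higher and 13.1% called lower. Ahsa1, a co-chaperone of HSP90, rose by 1.51 ± 0.15, Bag3, a co-chaperone of HSP70, by 0.82 ± 0.19, and Dnajb1 by 0.56 ± 0.15. Hspb1, a small heat shock protein gene, fell, at -1.34 ± 0.14.

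Beside the same 14.0% and 13.1% of all genes, 3 of 14 endoplasmic reticulum stress genes rose in replicate 2 (Chac1 by 2.59 ± 0.39, Calr by 0.59 ± 0.11 and Atf4 by 0.47 ± 0.10). Of 13 upstream regulators, 2 rose (Mrtfa by 1.05 ± 0.21 and Srf by 0.74 ± 0.21) and 2 fell (Elk3 at -0.95 ± 0.11 and Mrtfb at -0.54 ± 0.12). Of 10 ERK feedback genes edgeR called 0, with 4 at an unadjusted p under 0.05, beside 6580 of 15284 genes, and 3 called higher by DESeq2. Their values ran from 0.20 ± 0.25 for Spred2 to 1.09 ± 0.40 for Spry1, with Etv5 at 0.49 and Etv4 at 1.02.

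Between genotypes, edgeR called 0 genes of these 5 lists in mesenchyme, with 1 at an unadjusted p under 0.05 (Nr4a2, at 0.65), and DESeq2 called 0 as well. The medians were 0.33 for other immediate early genes, 0.61 for ERK feedback genes, -0.04 for other heat shock genes, -0.08 for endoplasmic reticulum stress genes and -0.10 for upstream regulators. Nr4a1 had the highest value of the immediate early list at 1.19 ± 0.80 and Npas4 the lowest at -0.67 ± 0.93.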

How the data were processed

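Single-cell suspensions of the proximal lower incisor of WT and Din-KO mice were profiled with 10x Genomics 3′ reagents (version 3.1), with 2 libraries per genotype, grouped by the labels. The authors deposited raw UMI counts for each gene and barcode, from Cell Ranger 6.0.2 against mm10/GRCm38 per the submitters' processing notes, with no normalization. The sources used here do not say whether reads were counted by strand.

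Barcodes with at least 1000 genes, at most 10% mitochondrial UMIs and at most 3% hemoglobin UMIs were kept. Seurat 5.3.0 integrated the libraries on 2000 variable genes and 30 principal components and clustered them at a resolution of 1, after the listed stress genes were taken out of the variable genes. The cell cycle scores were regressed. Clusters were named "-like" from marker lists where at least 3 markers were detected. Names were thus rebuilt here and may differ from those of the study. Scrublet (scanpy 1.11.5) called 107 of 11310 cells doublets (0.946%), and none was removed in the main analysis.

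UMI counts were summed per class and library where a class held at least 20 cells. Sums were tested in edgeR 4.0.16 (R 4.3.3, TMM, filterByExpr, quasi-likelihood test, Benjamini-Hochberg adjustment over all genes tested, threshold 0.05) with no covariate, or with library as a term between classes. The scripts were tested on simulated data. Alternatives were DESeq2 1.42.0, its size factors in edgeR, no filter on low counts, cells thinned to 2000 UMIs, at least 500 genes and at most 20% mitochondrial UMIs, stress genes kept in clustering, a resolution of 0.5, the highest 5% of doublet scores left out, cells of 1 sex (at least 3 Xist UMIs and no UMI of 4 Y-linked genes), the replicate number as a block, and each library left out.

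The 10 members and all gene lists were chosen with earlier results of these data known. All members are named. From the other lists, the 3 genes with the largest absolute log2 fold change past the threshold are named, or, with none past it, the 2 lowest and the 2 highest. Genes named beyond this rule were chosen after their values were seen. A level of 0 was given a limit of 3 UMIs, summed over the libraries named, and limits cover counting error only. Free RNA in droplets was not removed.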

Additional observations from a re-analysis of the deposited data

Results flagged for a closer look

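The barcodes that failed the filters on genes, mitochondrial or hemoglobin UMIs entered no main comparison, and only an alternative with wider filters took in part of them. The 2 heat shock copies, which may share reads, were higher there in both Din-KO libraries than in both WT libraries. These 2 of 10 members were a smaller share than the 32.9% of the 11291 genes with at least 100 UMIs in these barcodes. The CPM values of this paragraph leave hemoglobin UMIs out of the total, while the 32.9% share was computed with them in. Hspa1a stood at 3.91 (WT) and 15.6 CPM (Din-KO) for replicate 1, from 18 and 76 UMIs, and at 8.58 and 14.0 CPM for replicate 2, from 31 and 82 UMIs, a ratio of means of 2.37. Hspa1b stood at 4.12 (WT) and 12.5 CPM (Din-KO) for replicate 1, from 19 and 61 UMIs, and at 9.13 and 17.6 CPM for replicate 2, from 33 and 103 UMIs, a ratio of means of 2.27. Neither difference was tested, and the part of cell make-up and cell damage in it was not tested. The other 8 members overlapped between the genotypes in these barcodes, and Fos measured 59.7 (WT) and 148 CPM (Din-KO) for replicate 1, and 349 and 364 CPM for replicate 2.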

How the results depend on the processing

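The result that no member passed the genotype test in mesenchyme was kept by 13 of 14 alternatives and lost with the replicate block. Those 13 alternatives had no term for the replicate number, so they share this limit. With the replicate number as a block, edgeR called 5 members (Fos, Fosb, Junb, Egr1 and Ier2), 100 genes higher and 28 lower in mesenchyme, against 0 of each without it. In pulp-like cells the block called 6 members, 151 genes higher and 50 lower, in follicle-like cells 2 members, 49 genes higher and 4 lower, and in the other classes together no member and 398 genes against 10. The 2 libraries with number 1 deviated from their group means together (r = 0.824 across 15284 genes, which are not independent), but 2 pairs and labels that name no shared batch do not show that the numbers pair the libraries. The block turned the genotype value in endothelium to 0.0174 for Fosb, 0.044 for Jun and 0.0806 for Junb, and that in epithelium to -0.000744 for Ier2.

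DESeq2 called 15 genes higher in Din-KO mesenchyme and 117 in the other classes, and 8 were higher with no filter on low counts. With a library left out, between 2 and 13 genes were called higher in mesenchyme, between 0 and 32 higher and 0 and 14 lower in pulp, and between 6 and 32 higher and 0 and 2 lower in follicle, with no member among them. The genotype value in mesenchyme then ranged from -0.18 to 2.12 for Fos, -0.51 to 2.33 for Fosb, -0.41 to 1.40 for Jun, -0.35 to 0.81 for Jund, -0.25 to 2.18 for Egr1, -1.08 to 3.05 for Atf3, -0.35 to 0.58 for Hspa1a and -0.41 to 0.75 for Hspa1b. In pulp it ranged from -0.0942 to 2.13 for Fos, -0.52 to 2.52 for Fosb, -0.17 to 1.54 for Jun, -0.0886 to 0.89 for Jund, -0.28 to 2.48 for Egr1, -0.29 to 0.90 for Hspa1a and -0.27 to 0.71 for Hspa1b. In follicle it ranged from -0.22 to 2.13 for Fosb, -0.18 to 0.86 for Jun, -0.13 to 0.24 for Jund, -0.21 to 2.47 for Atf3, -0.029 to 1.14 for Hspa1a and -0.45 to 1.52 for Hspa1b. Thinned to 2000 UMIs, the mesenchyme value of Hspa1b was -0.0799.

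Between replicate numbers in mesenchyme, 9 members, 2146 genes higher and 1997 lower became 4, 1032 and 981 with cells thinned, and 3 to 10, 697 to 1678 and 639 to 1602 with a library left out. Against mesenchyme, 31 higher and 18 lower pairs of class and member became 17 to 28 and 13 to 20 with a library left out, and 10 were lower after thinning. Of the values of single genes under alternatives other than a left-out library, 278 kept their call, 19 gained it, 9 lost it and 5 reversed. The cause of these changes was not tested. Depth limits Atf3 in mesenchyme (10 to 73 UMIs a library) and Hspa1a and Hspa1b outside it, and 2 libraries a group limit all tests.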

Other observations

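One cluster of 168 cells met no rule for a name. In it Atf3 stood at 32.2 (WT) and 48.8 CPM (Din-KO) for replicate 1, and at 331 and 421 CPM for replicate 2. Junb stood at 318, 886, 1454 and 1930 CPM in the same order, and Fos at 246, 574, 1375 and 2460 CPM. Both replicate 2 libraries were above both replicate 1 libraries for these 3 genes. Hspa1a and Hspa1b had at most 3 UMIs in any library of this cluster.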
